A study of Mus musculus with 19 samples.

Results

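The library described here came from 46c mouse embryonic stem cells that carried a short hairpin against Sox21os, a long non-coding RNA of the Sox21 locus, and that had been treated with retinoic acid. It was set against the 4 other knockdown libraries of the same experiment, 2 with a hairpin against Nr2f1as and 2 with a hairpin against Pou3f3os, so 5 of the 19 libraries of the series were used. All 5 cultures were grown in serum-free N2B27 medium with 5 nM retinoic acid and harvested on day 4, and mRNA was purified with oligo-dT beads before stranded library preparation. The 2 control-hairpin libraries of the same medium and day (controls 1 and 2) were left out of the comparison, and their values are given beside it. The remaining 12 libraries of the series came from other differentiations and entered only the estimate of the spread.

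Members were the entries of the deposited FPKM table (a fragment count divided by transcript length and by sequencing depth) for which shSox21os lay outside the range of all 4 other knockdown libraries. At least 5 FPKM was required in 1 of the 5 libraries. Of 38424 entries, 9027 reached that floor and 3336 lay outside the range (37.0%), 1601 above it (17.7%) and 1735 below it (19.2%). Were the 5 libraries interchangeable, any 1 of them would lie above the other 4 at a share of 0.2 of the entries. It would lie outside their range at a share of 0.4. The counts by themselves therefore do not set shSox21os apart from the other libraries. Whether libraries 1 and 2 of a group differ in culture, in hairpin or only in handling is not stated by the labels, and p-values then capture no more than the spread seen between such libraries, which may be technical. The hairpins' sequences were not used here, and shSox21os is 1 library with no spread of its own.

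Retinoic acid enters the nucleus and binds the receptors Rara, Rarb and Rarg, which sit on DNA as pairs with the Rxr receptors and switch on nearby genes. Among the early targets are the 3′ Hox genes, the enzymes that clear or recycle retinoids, and the cellular retinoic acid binding proteins. In embryonic stem cells this signal drives neural differentiation with hindbrain and spinal cord character, while the pluripotency factors Pou5f1 and Nanog are shut down. The 46C line carries a green fluorescent protein reporter in Sox1, a gene of the early neural plate. Sox21, the coding neighbour of the targeted RNA, belongs with Sox1, Sox2, Sox3 and Sox14 to the SoxB family, which controls when neural progenitors leave the cycle and differentiate.

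As a whole, shSox21os lay slightly nearer to shNr2f1as than to shPou3f3os. Over the 9027 entries, the median absolute difference on the log2(FPKM + 1) scale was 0.13 to each shNr2f1as library, 0.16 and 0.15 to shPou3f3os 1 and 2, and 0.22 to each control. The 2 shNr2f1as libraries differed from each other by 0.16, the 2 shPou3f3os libraries by 0.12 and the 2 controls by 0.20. The distance from shSox21os to either shNr2f1as library was below the distance between those replicates, but shNr2f1as 1 also lay nearer to shPou3f3os 1 and 2, at 0.14 and 0.13, than to shNr2f1as 2. At least 2-fold more in shSox21os was seen at 40 and 46 entries against shNr2f1as 1 and 2 and at 126 and 107 entries against shPou3f3os 1 and 2, and at least 2-fold less at 49 and 43 and at 100 and 69 entries. Library totals lay between 595720 and 632522 FPKM in the 5 libraries, with shSox21os the highest.

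Most excursions beyond the range were small. The median gap to the nearest of the 4 libraries was 0.064 on the log2 scale above the range and 0.093 below it, and 1282 of the 1601 and 1124 of the 1735 entries lay within 1.1-fold of the edge. Just inside the criterion, Rab40c was at 16.5768 FPKM in shSox21os and 16.5762 FPKM in the nearest library, and Hsd17b4 was at 30.4252 FPKM against 30.427 FPKM. Only 54 entries lay at least 1.5-fold beyond the range on FPKM + 1, 12 above it (0.133% of the 9027) and 42 below it (0.465%). With every library brought to an equal FPKM total, 1076 entries lay above the range and 2161 below it, so the split between the sides depends on the scaling. The edge of the range was often set by shNr2f1as 2, which was the lowest of the 4 at 49.2% of the entries below the range and the highest at 32.7% of those above it. Without shNr2f1as 2 the count outside the range was 5161.

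The difference itself was tested with limma on log2(FPKM + 1), as shSox21os minus the mean of the shNr2f1as and shPou3f3os group means. Of 14942 entries tested, 1 passed at an adjusted p of 0.05 (0.00669%), and 476 had an unadjusted p under 0.05. That entry is the unnamed locus XLOC_012997, described at the end. No named gene passed: each one printed below that was tested had an adjusted p of 1 by limma. The count moved in some fits with a library left out, which leave a group without spread of its own. An exact permutation test of 1 library against 4 cannot give a p below 0.2 one-sided or 0.4 two-sided, so levels below are descriptions, and "higher" and "lower" refer to these libraries alone.

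No entry carries the name Sox21os. Sox21 (chromosome 14, 118632456 to 118636252, mm9-like positions) was at 19.5 FPKM in shSox21os, 25.6 and 20.3 FPKM in shNr2f1as, 22.9 and 27.1 FPKM in shPou3f3os, and 26.3 and 29.0 FPKM in the controls. AK039417, an entry that overlaps one end of Sox21, was at 7.77 FPKM in shSox21os, 11.5 and 8.71 FPKM in shNr2f1as, 8.20 and 12.95 FPKM in shPou3f3os, and 12.9 and 13.2 FPKM in the controls. Both were lowest in shSox21os among the 7 retinoic acid libraries, but the gap to the nearest knockdown library was 0.05 and 0.07 on the log2 scale. The log2 difference was -0.28 ± 0.23 (SE) for Sox21 and -0.35 ± 0.23 for AK039417, within the spread of the libraries by limma. Whether AK039417 holds the targeted RNA, and whether the stranded reads of the overlapping entries were kept apart, was not settled by the labels.

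The SoxB factors of the neural plate were slightly lower as well. Sox1 was at 83.3 FPKM against 89.8 to 110.9 FPKM in the 4 libraries, and Sox3 at 108.1 against 113.4 to 139.5 FPKM. The controls were at 94.1 and 83.7 FPKM for Sox1 and at 114.6 and 106.3 FPKM for Sox3, so control 2 lay beside shSox21os. Sox2, shared by pluripotent and neural cells, lay inside the range at 167.2 FPKM against 164.4 to 188.1 FPKM. Of the 4 SoxB members at the floor, 3 were below the range (75.0%, against 19.2% over all entries) and none above it. Their median log2 difference was -0.23 against -0.0021 over all entries tested. Sox14 stayed at or below 0.382 FPKM in all 7 libraries.

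At the loci of the other targeted RNAs, shSox21os lay nearer to shNr2f1as than to shPou3f3os. Nr2f1, an orphan nuclear receptor induced by retinoic acid, was at 5.10 FPKM in shSox21os, 9.35 and 4.94 FPKM in shNr2f1as, 15.2 and 12.6 FPKM in shPou3f3os, and 21.4 and 16.4 FPKM in the controls. The unnamed locus XLOC_006022 beside it was at 5.57 FPKM in shSox21os, 10.2 and 5.98 FPKM in shNr2f1as, with 19.4 and 18.8 FPKM in shPou3f3os. At both entries shSox21os lay next to shNr2f1as 2, one of the 2 libraries with a hairpin against the RNA of that locus, and under both shPou3f3os libraries. Its paralogue Nr2f2 was at 5.18 FPKM, below 8.66 and 7.89 FPKM in shNr2f1as, with 17.98 and 11.98 FPKM in shPou3f3os. Pou3f3, a neural POU factor, was at 1.88 FPKM in shSox21os, inside 1.31 to 4.18 FPKM.

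Retinoic acid response genes were split. Of 26 listed genes in the table, 21 reached the floor, 5 lay above the range (23.8%) and 2 below it (9.52%). The shares over all entries were 17.7% and 19.2%, so the count above is near that of entries in general. None passed by limma among 25 tested, 6 had an unadjusted p under 0.05, and the median log2 difference was -0.015. That median turned to 0.08, 0.04, 0.11 and 0.02 when shNr2f1as 1, shNr2f1as 2, shPou3f3os 1 and shPou3f3os 2 were left out in turn, so its sign changed with each library left out.

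**Figure D1:**
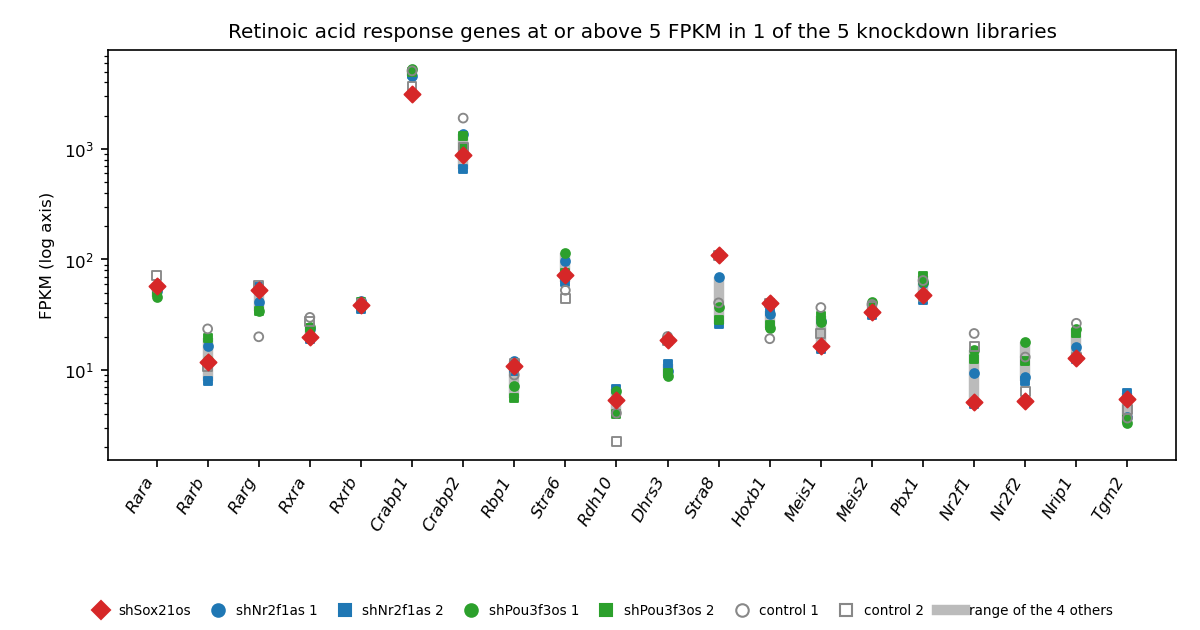
FPKM on a log axis of retinoic acid response genes at or above 5 FPKM in 1 of the 5 knockdown libraries, 1 point per library, with a grey bar for the range of the 4 other knockdown libraries and open symbols for the controls. The shSox21os diamond lies above the bar for Rara, Stra8, Dhrs3 and Hoxb1 and below it for Crabp1 and Nr2f2.

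Among the listed genes, Stra8 and Dhrs3 lay well above the range. Stra8, a gene named for its induction by retinoic acid and needed for entry into meiosis, was at 110.3 FPKM in shSox21os, 69.4 and 25.96 FPKM in shNr2f1as, 36.9 and 28.5 FPKM in shPou3f3os, and 40.5 and 107.9 FPKM in the controls. The shSox21os value was 2.74 times the mean of the 4, 40.2 FPKM, and control 2 reached almost the same level. Dhrs3, a reductase that returns retinaldehyde to retinol and so limits retinoic acid, was at 18.7 FPKM against 9.70 and 11.3 FPKM in shNr2f1as, with 8.77 and 9.47 FPKM in shPou3f3os. The 4 libraries were tight around 9.80 ± 1.05 FPKM (SD, n = 4), and both controls, at 20.1 and 18.3 FPKM, lay beside shSox21os. For Dhrs3 it was thus the 4 other knockdown libraries that stood apart from the remaining 3. The log2 difference was 1.54 ± 0.50 (SE) for Stra8 and 0.87 ± 0.31 for Dhrs3.

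Carriers and receptors differed less or lay the other way. Crabp1, which carries retinoic acid in the cytoplasm, was the most abundant of the listed genes and was at 3173 FPKM in shSox21os, 4542 and 4753 FPKM in shNr2f1as, 5297 and 5023 FPKM in shPou3f3os, and 5098 and 3697 FPKM in the controls. It was the lowest of the 7 libraries, at 0.647 of the mean of the 4. Its relative Crabp2 was inside the range, at 880.6 FPKM against 661.7 to 1375 FPKM. Among the receptors, Rara was just above the range, at 58.0 FPKM against 45.9 to 54.9 FPKM, while Rarb, Rarg, Rxra and Rxrb were inside it. Rarb, itself a classical target, was at 11.7 FPKM in shSox21os, 16.6 and 7.87 FPKM in shNr2f1as, with 12.2 and 19.3 FPKM in shPou3f3os. Cyp26a1, the enzyme that degrades retinoic acid, was under the floor at 3.33 FPKM against 1.34 to 2.77 FPKM.

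Receptor pairs bind direct repeats of a half-site, here searched as AGGTCA or, with other letters, AGTTCA or else GGGTCA or finally GGTTCA, on both strands in the 250 bases before each start in RefSeq's table for GRCm38.p6. At least 1 half-site was present in 38.6% of the 32851 windows, and a direct repeat with 5 bases between the half-sites in 0.0883%. Windows were found for 19 of the 26 listed genes, and 9 of the 19 held a half-site in at least 1 of their windows. Several of these genes have more than 1 window, so counts by gene cannot be set against the shares by window. A repeat with a spacer of 5 was found in 2 of the 19, Rarb (chr14:16575477-16575726, minus strand) and Cyp26a1 (chr19:37697558-37697807, plus strand). Rarb lay inside the range, and Cyp26a1 was above all 4 libraries but under the floor. Stra8 (chr6:34920698-34920947, plus strand), with the highest fold of the listed genes, held 2 single half-sites. The 3 windows are shown to compare the listed gene with the highest fold over the mean of the 4 libraries against the 2 that hold the repeat, each 5′ to 3′ in the direction of transcription with half-sites on either strand in capitals.
Stra8: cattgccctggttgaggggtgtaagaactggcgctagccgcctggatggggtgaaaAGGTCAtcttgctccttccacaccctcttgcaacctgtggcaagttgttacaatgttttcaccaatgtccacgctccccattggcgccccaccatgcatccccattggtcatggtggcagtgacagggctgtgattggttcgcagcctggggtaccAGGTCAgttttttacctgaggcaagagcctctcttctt
Rarb: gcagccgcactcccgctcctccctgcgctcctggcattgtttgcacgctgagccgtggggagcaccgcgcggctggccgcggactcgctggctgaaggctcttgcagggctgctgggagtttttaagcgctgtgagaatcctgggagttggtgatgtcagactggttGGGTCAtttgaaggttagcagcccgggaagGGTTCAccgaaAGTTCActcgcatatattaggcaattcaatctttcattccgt
Cyp26a1: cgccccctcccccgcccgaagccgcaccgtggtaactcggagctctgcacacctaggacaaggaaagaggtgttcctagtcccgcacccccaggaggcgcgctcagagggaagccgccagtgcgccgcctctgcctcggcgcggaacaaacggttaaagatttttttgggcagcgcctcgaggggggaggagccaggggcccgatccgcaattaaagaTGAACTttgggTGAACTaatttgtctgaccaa
No repeat with a spacer of 2 was found in the 19 genes, against 0.174% of all windows. A match describes letters in these windows and does not show binding.

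The anterior Hox genes, which retinoic acid induces in order along each cluster, lay on both sides of the range. Hoxb1 was at 40.3 FPKM in shSox21os, 31.9 and 34.2 FPKM in shNr2f1as, with 23.8 and 25.7 FPKM in shPou3f3os. Hoxb1 was thus above all 4 libraries, by a log2 gap of 0.23. Genes of groups 2 and 3 lay below the range: Hoxa2 was at 20.1 FPKM against 22.1 to 29.8 FPKM, and Hoxb2 at 11.98 against 13.3 to 18.1 FPKM. Hoxa3 was at 35.0 FPKM against 37.4 to 45.2 FPKM, and Hoxb3 at 4.83 against 5.66 to 8.69 FPKM. Of the 7 Hox genes of groups 1 to 3 at the floor, 4 were therefore below the range (57.1%, against 19.2% over all entries) and 2 above it. None was called by limma and 2 had an unadjusted p under 0.05. Among Hox genes of groups 4 to 6, only Hoxa5 lay outside the range, at 15.1 FPKM against 10.1 to 13.2 FPKM, and the others lay between shNr2f1as 2 and the remaining libraries. The mitochondrial, pluripotency and signalling genes below that the ranking did not reach were picked after their values were seen.

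Other genes above the range came from several pathways. Ephx2, the soluble epoxide hydrolase, was at 25.8 FPKM in shSox21os, 13.8 and 13.9 FPKM in shNr2f1as, 3.48 and 8.69 FPKM in shPou3f3os, and 6.10 and 11.5 FPKM in the controls. Actc1, the actin of heart muscle, was at 32.0 FPKM in shSox21os, 11.8 and 16.4 FPKM in shNr2f1as, 6.15 and 19.7 FPKM in shPou3f3os, and 3.93 and 2.81 FPKM in the controls. Both were highest in shSox21os among the 7 libraries, and Actc1 was lower in both controls than in every knockdown library. Eci1, an isomerase of mitochondrial fatty acid oxidation, was at 22.3 FPKM against 14.2 ± 0.927 FPKM (SD, n = 4). Spp1, the secreted phosphoprotein osteopontin, was at 8.74 FPKM against 2.86 to 5.99 FPKM. Egr1, an immediate early factor, was at 15.9 FPKM against 8.04 to 11.3 FPKM, and Pmaip1, a pro-apoptotic p53 target, at 5.63 against 2.51 to 3.80 FPKM. Also among the farthest above were Ooep, Fuom and Ap3b2, at 5.14, 7.93 and 14.5 FPKM. Among the 5 knockdown libraries, Pmaip1 and Ooep reached the floor of 5 FPKM in shSox21os alone. The other 4 held at most 3.80 FPKM of Pmaip1 and 3.17 FPKM of Ooep.

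More genes lay well below the range than well above it, but the floor does not treat the sides alike. An entry above the range must reach 5 FPKM in shSox21os itself, whereas 1 below it may do so in any of the 4 other libraries. Lbh, a transcriptional cofactor induced by Wnt signalling, was at 16.1 FPKM in shSox21os, 49.4 and 36.6 FPKM in shNr2f1as, 75.7 and 43.3 FPKM in shPou3f3os, and 37.7 and 12.8 FPKM in the controls. Prss23, a secreted serine protease, was at 21.1 FPKM in shSox21os, 46.3 and 42.7 FPKM in shNr2f1as, 67.1 and 61.4 FPKM in shPou3f3os, and 57.3 and 23.0 FPKM in the controls. In both cases shSox21os was at less than 0.39 of the mean of the 4 libraries and beside control 2. S1pr3, a receptor for sphingosine 1-phosphate, was at 1.103 FPKM against 2.79 to 5.81 FPKM, and Arhgap29, a GTPase-activating protein, at 5.64 against 10.4 to 16.1 FPKM. Pdlim2, Nuak1 and Npnt, a cytoskeletal adaptor, a kinase and the matrix ligand nephronectin, were at 7.90, 32.3 and 2.70 FPKM against lowest values of 13.9, 53.4 and 5.07 FPKM. Thbs1 and Edn1, the secreted factors thrombospondin 1 and endothelin 1, were at 28.4 and 3.37 FPKM against lowest values of 44.8 and 5.74 FPKM.

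**Figure D2:**
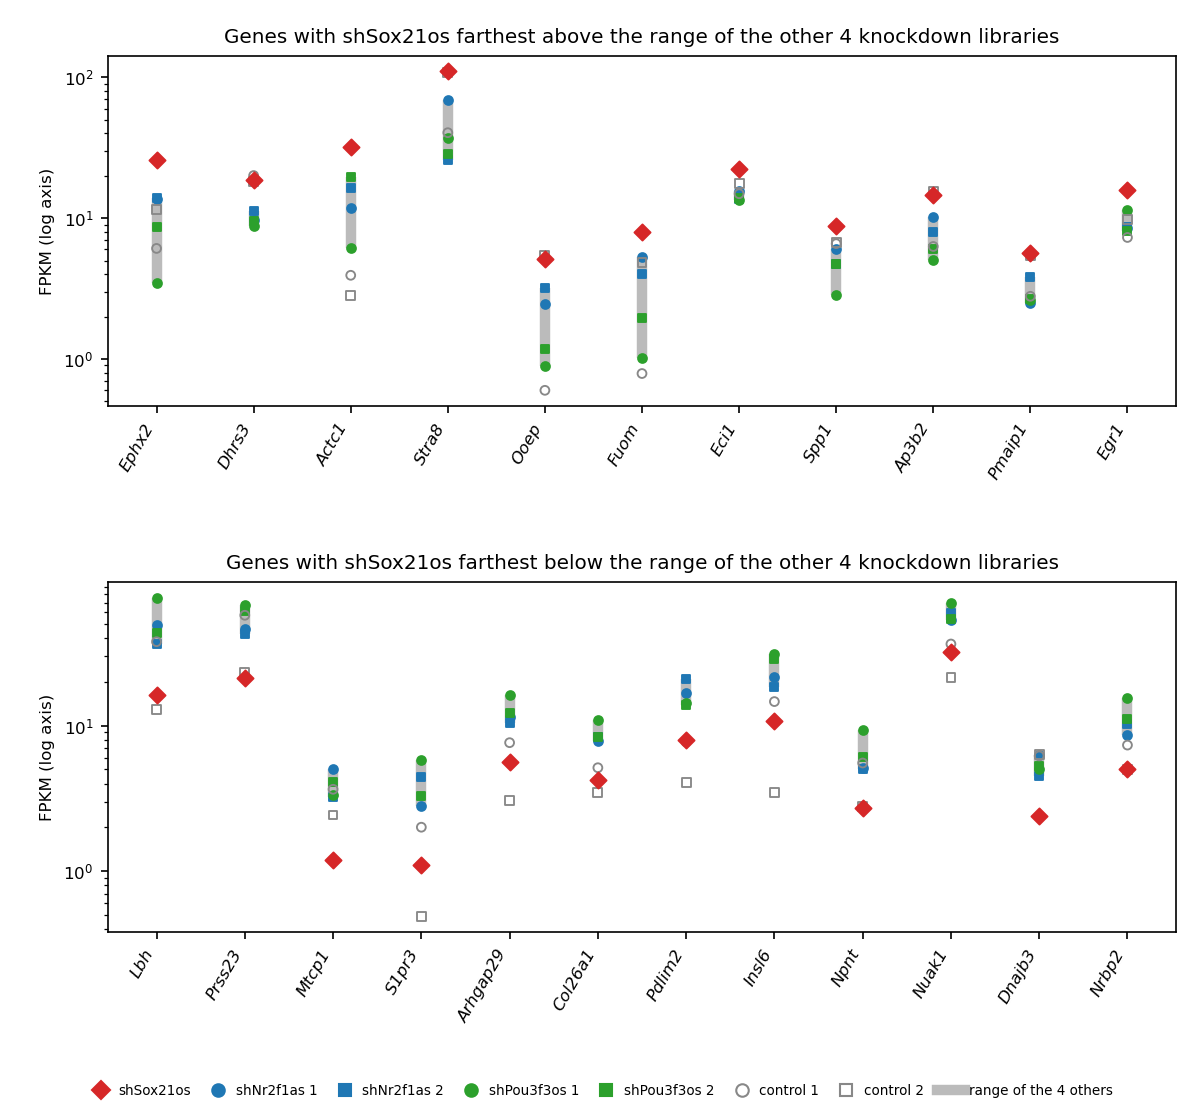
FPKM on a log axis of the genes farthest above (upper panel) and farthest below (lower panel) the range of the 4 other knockdown libraries, 1 point per library, with grey bars for that range and open symbols for the controls. In the lower panel control 2 lies near or under the shSox21os diamond for Lbh, S1pr3, Arhgap29, Pdlim2 and Insl6, while for Mtcp1 and Dnajb3 the diamond lies under both controls too.

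Control 2 often lay on the same side as shSox21os below the range. Of the 42 entries at least 1.5-fold below the range, control 2 was also below it at 32 and above it at 3, while control 1 was below it at 19 and above it at 1. Of all 1735 entries below the range, control 2 was below it at 991 (57.1%), and of the 1601 above, control 2 was above at 945 (59.0%). Of the 5691 entries inside the range, control 2 was above it at 29.7% and below it at 30.8%. Control 1 was below the range at 38.2% of the 1735 and above it at 40.8% of the 1601. For the 5691 inside, control 1 was below it at 27.9% and above it at 27.5%. The controls are judged against the same range that picked the entries, which raises the shared side even for interchangeable libraries. Of the 12 entries at least 1.5-fold above the range, control 2 was above it at 2 and below it at 2. Mtcp1 and Dnajb3 were lower in shSox21os than in both controls. Mtcp1, a small oncoprotein relative of Tcl1, was at 1.2004 FPKM in shSox21os, 5.01 and 3.21 FPKM in shNr2f1as, 3.35 and 4.11 FPKM in shPou3f3os, and 3.65 and 2.43 FPKM in the controls. Dnajb3, a testis-type DnaJ co-chaperone, was at 2.39 FPKM in shSox21os, 6.26 and 4.54 FPKM in shNr2f1as, 5.00 and 5.27 FPKM in shPou3f3os, and 6.19 and 6.30 FPKM in the controls.

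Pluripotency genes were high in shSox21os, most of them within the range. Pou5f1 was at 180.2 FPKM in shSox21os, 92.1 and 193.8 FPKM in shNr2f1as, 47.2 and 44.6 FPKM in shPou3f3os, and 43.5 and 281.8 FPKM in the controls. Klf2 was at 51.9 FPKM in shSox21os, 23.0 and 58.1 FPKM in shNr2f1as, with 9.65 and 12.9 FPKM in shPou3f3os, and Esrrb at 22.1, 14.1 and 27.01, and 5.16 and 6.10 FPKM. For these genes shSox21os lay with shNr2f1as 2 and control 2 and above the other 4 retinoic acid libraries. Nanog was just above the range, at 34.1 FPKM against 10.5 to 32.0 FPKM. Of 16 listed pluripotency genes at the floor, 3 were above the range (18.8%) and 1 below it (6.25%), the shares being 17.7% and 19.2% over all entries. The median log2 difference over the 25 tested was 0.65, as a median of 1.14 and 1.09 from shPou3f3os 1 and 2, 0.32 from shNr2f1as 1 and -0.14 from shNr2f1as 2.

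Genes that go with the epithelial, Nodal-responsive state of pluripotent cells followed the same order of libraries. Cdh1, the epithelial cadherin, was at 45.2 FPKM in shSox21os, 32.6 and 63.3 FPKM in shNr2f1as, 19.9 and 19.3 FPKM in shPou3f3os, and 12.3 and 34.9 FPKM in the controls. The Nodal target Lefty1 was at 58.4 FPKM in shSox21os, 39.5 and 72.7 FPKM in shNr2f1as, with 9.09 and 13.6 FPKM in shPou3f3os, and Nodal itself at 9.996, 6.18 and 12.5, and 2.23 and 1.92 FPKM. Id3, a direct target of BMP signalling, ran the opposite way, at 28.4 FPKM in shSox21os, 72.1 and 20.6 FPKM in shNr2f1as, 139.4 and 104.7 FPKM in shPou3f3os, and 161.1 and 64.9 FPKM in the controls. In bulk RNA, fewer cells of a type and less RNA per cell cannot be told apart. The summed FPKM of the pluripotency list was 1325 in shSox21os, 1014 and 1523 in shNr2f1as, 784.5 and 758.5 in shPou3f3os, and 650.9 and 1631 in the controls. None of its 25 members was at 0 in all 7 libraries, and its part in the gene groups below was not tested.

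**Figure D3:**
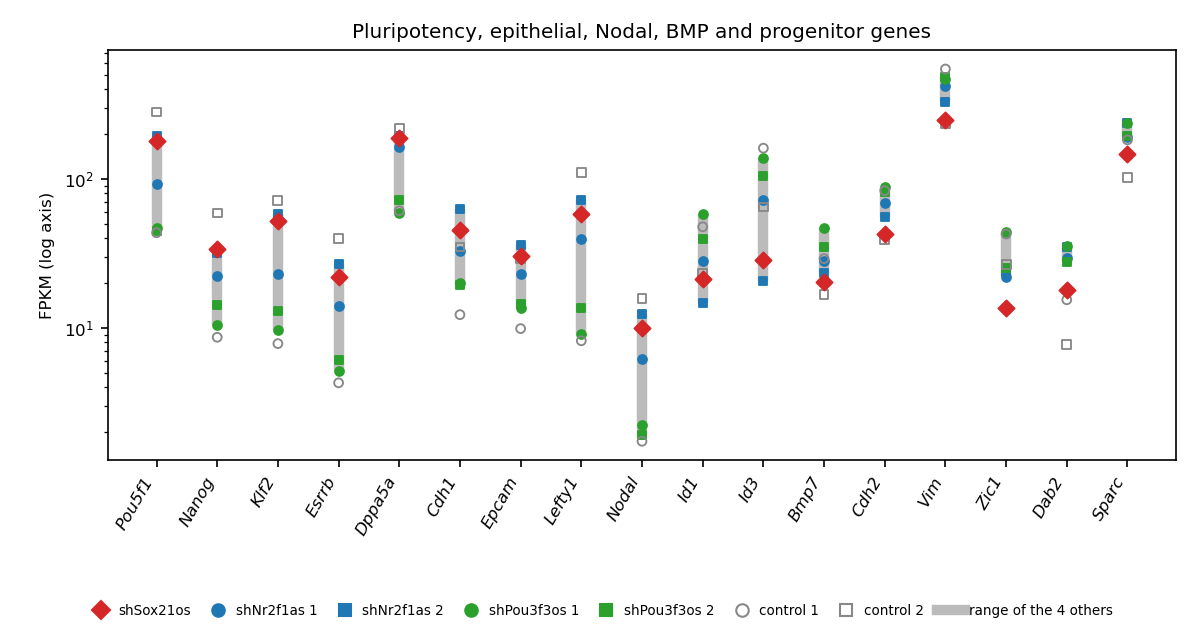
FPKM on a log axis of 17 pluripotency, epithelial, Nodal, BMP and progenitor genes, 1 point per library, with grey bars for the range of the 4 other knockdown libraries and open symbols for the controls. From Pou5f1 to Nodal the shSox21os diamond lies near shNr2f1as 2 (blue square). It is in the upper part of the bar, or for Nanog just above the bar. From Bmp7 to Sparc the diamond lies below the bar.

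BMP ligands and mesenchymal cadherins were low in shSox21os. Bmp6 was at 2.02 FPKM in shSox21os, 3.81 and 4.52 FPKM in shNr2f1as, 10.04 and 5.95 FPKM in shPou3f3os, and 6.23 and 1.04 FPKM in the controls. Bmp7 was at 20.4 FPKM against 23.5 to 46.9 FPKM, and Id2 at 35.1 against 47.6 to 64.1 FPKM. Of 13 BMP and TGF-beta genes at the floor, 6 were below the range (46.2%) and none above it, although Nodal, Lefty1 and Lefty2 in the same list lay inside it. Cdh2, the neural cadherin, was at 42.5 FPKM in shSox21os, 69.2 and 55.8 FPKM in shNr2f1as, 88.2 and 82.2 FPKM in shPou3f3os, and 83.5 and 38.9 FPKM in the controls. Vim, the intermediate filament of progenitor and mesenchymal cells, was at 247.1 FPKM in shSox21os, 418.0 and 329.8 FPKM in shNr2f1as, 470.2 and 487.6 FPKM in shPou3f3os, and 547.7 and 235.5 FPKM in the controls. Of 13 cadherin and EMT genes, 6 were below the range (46.2%, against 19.2% over all entries) and none above it. Vim is counted again in the progenitor and fibroblast lists.

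Neural progenitor markers were present in all 5 libraries and mostly lower in shSox21os. Of 21 at the floor, 8 were below the range (38.1%) and none above it, with a median log2 difference of -0.17. Zic1, a zinc finger factor of the dorsal neural tube, was at 13.7 FPKM in shSox21os, 22.1 and 23.8 FPKM in shNr2f1as, 43.8 and 25.4 FPKM in shPou3f3os, and 42.7 and 26.6 FPKM in the controls. It was the lowest of the 7 libraries. Nes, the progenitor filament nestin, was at 36.9 FPKM against 47.5 to 52.95 FPKM, and Notch1 at 14.7 against 16.4 to 23.1 FPKM. Pax6 lay inside the range at 50.0 FPKM against 45.5 to 69.9 FPKM. The summed FPKM of the list was 1138 in shSox21os, 1446 and 1275 in shNr2f1as, 1598 and 1647 in shPou3f3os, and 1715 and 1264 in the controls. Hindbrain and spinal cord genes held 7 members below the range among 15 (46.7%) and 2 above it (13.3%). Over all entries the shares were 19.2% and 17.7%. Those below included Irx2 at 16.03 FPKM against 18.7 to 27.6 FPKM and Fgf3 at 3.26 against 3.54 to 6.61 FPKM. They also included Hoxa2, Hoxb2, Hoxb3 and Egr2, which are counted in other lists too.

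Matrix and basement membrane genes were lower as well. Sparc, a matrix glycoprotein, was at 147.5 FPKM in shSox21os, 190.5 and 238.4 FPKM in shNr2f1as, 237.6 and 194.8 FPKM in shPou3f3os, and 183.1 and 102.5 FPKM in the controls. Col4a1, the collagen of basement membranes, was at 19.3 FPKM against 25.0 to 44.0 FPKM, and Col2a1, the fibrillar collagen of cartilage and notochord, at 24.9 against 32.2 to 45.2 FPKM. Dab2, an endocytic adaptor of endoderm, was at 18.005 FPKM in shSox21os, 29.5 and 34.8 FPKM in shNr2f1as, 35.2 and 27.5 FPKM in shPou3f3os, and 15.4 and 7.75 FPKM in the controls. Of 18 matrix genes at the floor, 9 were below the range (50.0%, against 19.2% over all entries) and 1 above it (5.56%). Of 8 listed extraembryonic endoderm genes at the floor, 6 were below it, but 5 of those are also general matrix genes or laminins. The defining markers of that tissue, Afp, Ttr, Apoa1, Apob, Amn and Cubn, were all under 1 FPKM in the 7 libraries, so the list's name is not borne out by these values. Of 9 fibroblast genes at the floor, 5 were below the range (55.6%), among them Vim, which is also in the EMT and progenitor lists. Lum was listed at 0 and Postn, Dcn, Col3a1 and S100a4 under 1 FPKM in all 7.

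Imprinted genes, active from 1 parental copy, were often lower. Igf2, the embryonic growth factor, was at 73.0 FPKM in shSox21os, 184.2 and 101.9 FPKM in shNr2f1as, 163.5 and 100.7 FPKM in shPou3f3os, and 63.7 and 35.8 FPKM in the controls. Mest was at 357.5 FPKM against 475.2 to 706.6 FPKM, and Cdkn1c, a maternally expressed inhibitor of the cell cycle, at 48.8 against 61.7 to 76.5 FPKM. Of 17 imprinted genes at the floor, 9 were below the range (52.9%, against 19.2% over all entries) and 1, Phlda2, above it. Their median log2 difference was -0.23. For Igf2 and Mest control 2 lay lower than shSox21os.

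Nuclear genes for oxidative phosphorylation lay on the other side. All 44 listed subunits reached the floor, and 23 were above the range (52.3%, against 17.7% over all entries) and none below it. The median log2 difference was 0.14. Sdhb, the iron-sulphur subunit of complex II, was at 159.7 FPKM in shSox21os, 131.2 and 134.5 FPKM in shNr2f1as, 124.1 and 135.8 FPKM in shPou3f3os, and 147.1 and 134.4 FPKM in the controls. Atp5o, a subunit of ATP synthase, was at 200.02 FPKM against 151.6 to 174.4 FPKM, with controls at 177.1 and 252.9 FPKM. Single subunits stayed within 0.974 to 1.2495 times the mean of the 4 libraries. None was called by limma, and 1 had an unadjusted p under 0.05. At an equal FPKM total, 19 were above the range and the median was 0.10.

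Transcripts of the mitochondrial genome went the opposite way. Of 9 entries on the mitochondrial chromosome, 8 reached 1 FPKM in 1 of the 7 libraries, and all 8 were lower in shSox21os than in all 4 other knockdown libraries and both controls. Cox2, the table's name for mitochondrial cytochrome oxidase subunit 2, was at 146.7 FPKM in shSox21os, 207.7 and 185.6 FPKM in shNr2f1as, 212.6 and 179.9 FPKM in shPou3f3os, and 171.1 and 200.4 FPKM in the controls. Cytb, cytochrome b, was at 100.0 FPKM against 120.2 to 139.3 FPKM, with controls at 122.1 and 131.2 FPKM. The 9 entries summed to 493.7 FPKM in shSox21os, 608.3 to 703.4 FPKM in the 4 libraries, and 637.0 and 695.7 FPKM in the controls. These transcripts are cut from shared precursors, so they are not independent of each other. Neither Cox2 nor Cytb was called by limma, with log2 differences of -0.41 and -0.32.

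Against the other knockdown libraries, ribosomal, secretory and amino acid genes were also slightly higher. Of 47 cytosolic ribosomal protein genes at the floor, 19 were above the range (40.4%, against 17.7% over all entries) and none below it, with a median log2 difference of 0.13. That count was 10 at an equal FPKM total and 14 at the same median ratio. Rps12 was at 5642 FPKM in shSox21os, 4650 and 4743 FPKM in shNr2f1as, with 4431 and 4940 FPKM in shPou3f3os. Ribosomal proteins took 26.99% of all FPKM in shSox21os, 26.1% and 27.1% in shNr2f1as, and 24.2% and 25.1% in shPou3f3os, so the whole class was as high in shNr2f1as 2. Of 27 genes for tRNA synthetases, serine synthesis and amino acid uptake, 14 were above the range and none below it (11 and 2 at an equal total), among them Sars, the seryl-tRNA synthetase, at 67.3 FPKM against 50.7 to 57.8 FPKM. Of 14 endoplasmic reticulum stress genes, 8 were above, such as the factor Xbp1 at 12.4 FPKM against 8.25 to 10.98 FPKM. The summed FPKM of the amino acid list was 1233 in shSox21os, under 1485 and 1422 in the controls. That of the endoplasmic reticulum stress list was 1223 in shSox21os, under 1363 and 1431 in the controls. For the ribosomal list, shSox21os at 119305 lay between the controls, at 106454 and 125336.

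Sterol and sugar metabolism followed. Of 25 genes of cholesterol synthesis and uptake, 8 were above the range (32.0%, against 17.7% over all entries) and none below it. Fdps, a prenyl synthase, was at 207.8 FPKM against 161.6 to 192.0 FPKM. Against shPou3f3os 2 alone the median of that list was -0.04, whereas it was 0.30 against shNr2f1as 2. Of 20 hypoxia and glycolysis genes, 11 were above the range and 2 below it. Aldoa, the glycolytic aldolase, was at 1063 FPKM in shSox21os, 860.2 and 870.9 FPKM in shNr2f1as, 653.3 and 674.3 FPKM in shPou3f3os, and 579.4 and 939.5 FPKM in the controls. Slc2a1, the main glucose transporter, was at 778.6 FPKM against 544.1 to 691.7 FPKM. No member of these lists was called by limma. More abundant entries lay above the range more often in general, 23.9% of those with a mean of at least 100 FPKM against 15.9% of those under 10 FPKM, which stands beside every count of these highly expressed genes.

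**Figure D4:**
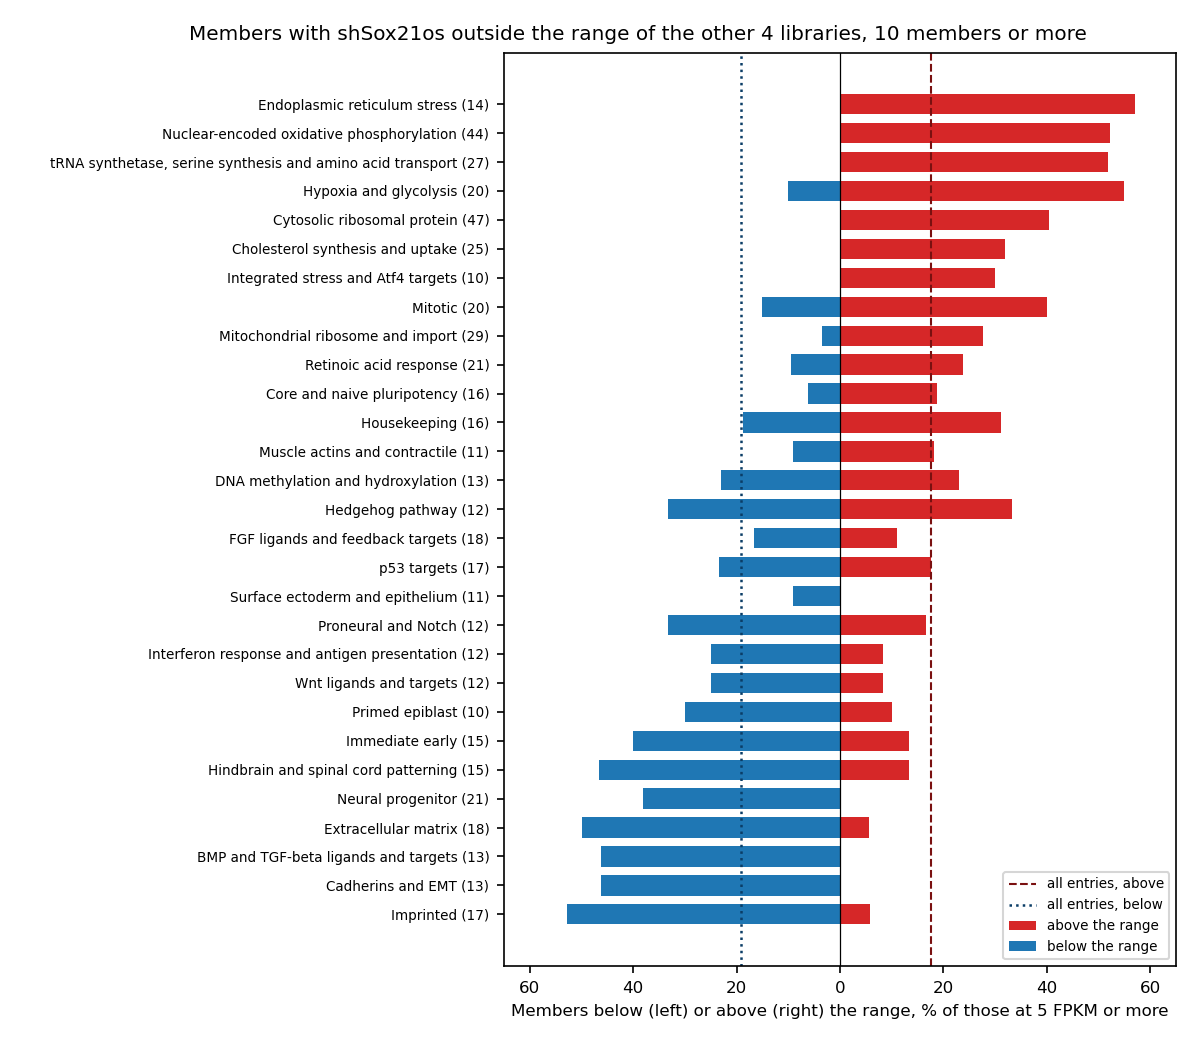
Share of each gene list's members with shSox21os below (blue, left) or above (red, right) the range of the 4 other knockdown libraries, in percent of the members at or above 5 FPKM (number in brackets), for lists with at least 10 such members. The broken lines mark the shares over all 9027 entries, 17.7% above and 19.2% below: endoplasmic reticulum stress, oxidative phosphorylation and tRNA synthetase genes pass the upper line with none below the range.

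Hedgehog genes lay on both sides of the range. The receptor Ptch1, which pathway activity induces, and the effector Gli1 were above the range. Ptch1 was at 49.5 FPKM in shSox21os, 34.5 and 42.1 FPKM in shNr2f1as, 28.0 and 39.2 FPKM in shPou3f3os, and 23.8 and 43.6 FPKM in the controls. Gli1 was at 7.78 FPKM in shSox21os, 4.82 and 6.86 FPKM in shNr2f1as, 2.90 and 5.27 FPKM in shPou3f3os, and 4.01 and 14.7 FPKM in the controls. The co-receptors Boc and Cdon, the inhibitor Sufu and the repressor Gli3 were below it, Cdon at 11.6 FPKM against 12.6 to 21.9 FPKM. These gaps were small on the log2 scale, at -0.023 for Boc, -0.11 for Cdon, -0.013 for Sufu and -0.070 for Gli3. In all, 4 of 12 Hedgehog genes were above and 4 below (3 and 5 at an equal total), with none called by limma and none at an unadjusted p under 0.05.

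Immediate early genes also went both ways. Egr2, a hindbrain and growth response factor, was at 3.69 FPKM in shSox21os, 5.33 and 29.5 FPKM in shNr2f1as, 9.90 and 6.79 FPKM in shPou3f3os, and 6.52 and 4.38 FPKM in the controls. Ctgf and Cyr61, targets of the Hippo effectors, were at 34.9 and 72.4 FPKM against lowest values of 44.8 and 74.3 FPKM. With Egr1 and Ier2 above the range and 6 of 15 below it, the list had a median log2 difference of -0.0082. Myc, at 7.06 FPKM against 7.38 to 11.1 FPKM, was far under the controls at 35.2 and 25.1 FPKM in all 5 knockdown libraries.

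**Figure D5:**
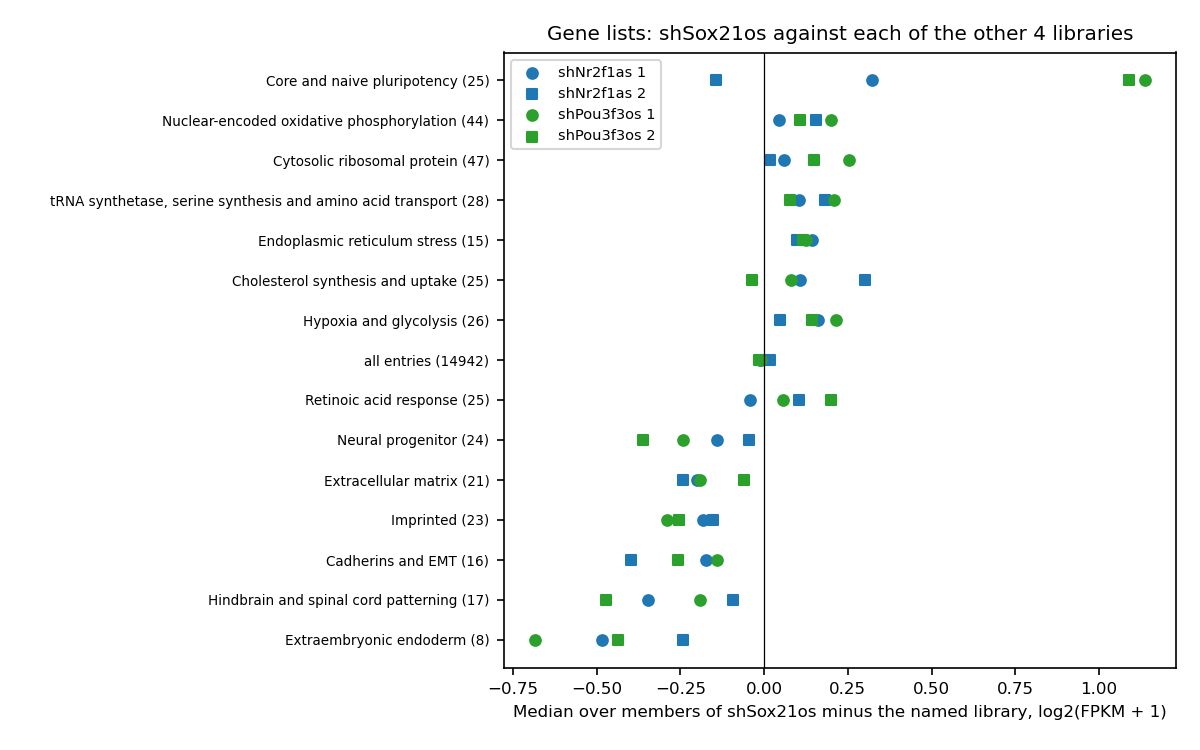
Median over the members tested (number in brackets) of shSox21os minus each of the other 4 libraries, on the log2(FPKM + 1) scale, for 14 gene lists and for all entries. The pluripotency medians run from -0.14 to 1.14, whereas those of oxidative phosphorylation lie between 0.05 and 0.20 and those of the imprinted genes between -0.29 and -0.15.

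Chromosomes gave no single outlying one. The share of entries above the range lay between 14.5% (chromosome 2) and 22.2% (chromosome 6, which carries Stra8), and the share below it between 16.1% (chromosome 17) and 25.8% (chromosome 15), with 25.7% on the X chromosome and 20.7% on chromosome 14, which carries Sox21. Within 100 kb of Sox21 the table holds 6 entries, of which 3 reached 1 FPKM. The third, Gpr180, was inside the range at 9.23 FPKM against 5.92 to 9.71 FPKM.

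The one call was at an unnamed assembled locus. XLOC_012997 (chromosome 2, 161167429 to 161172534) was at 8.79 FPKM in shSox21os, 6.37 and 4.28 FPKM in shNr2f1as, and listed at 0 in both shPou3f3os libraries, both controls and the 12 libraries of other differentiations. Groups at 0 in both libraries add no spread, so the SE of this call rests largely on values at 0. Its log2 difference averages 0.65 from shNr2f1as and 3.29 from shPou3f3os. The log2 difference was 1.97 ± 0.18 (SE), adjusted p = 0.00627 by limma, while the gap above shNr2f1as 1 was 0.41. With the 4 libraries taken as 1 group its adjusted p was 1, and over all alternatives it ran from 0.00018 to 1. The nearest named entries, Gm14241 at 9440 bp and Ptprt at 180825 bp, were listed at 0 and at or below 1.04 FPKM in the 7 libraries. XLOC_005051 (chromosome 12, 88521909 to 88523873), which overlaps Tmed8, was at 8.47 FPKM in shSox21os, 2.63 FPKM in control 1 and listed at 0 in the other 5 retinoic acid libraries. It had an adjusted p of 0.194 by limma. Among the retinoic acid groups of 2 libraries, its only spread was that between the controls. A fit without either control drops that spread, so its p cannot be read as stronger evidence and is not given. Tmed8 itself was even, at 1.51 FPKM in shSox21os against 1.098 to 1.52 FPKM. Unnamed loci made up 62 of the 1601 entries above the range and 85 of the 1735 below it.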

How the data were processed

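The authors deposited 1 table of FPKM values covering all 19 libraries. CASAVA, TopHat2 2.0.11 and the builds mm9 and mm10 are named, per the submitters' processing notes. The quantifier, the annotation and the strand setting are not stated there. Positions look like mm9 rather than GRCm38: 116 entries lie on random chromosomes, and 973 of 18910 matched coding symbols (5.15%) end within 1000 bp of GRCm38. They are printed 1-based and were not mixed with the GRCm38.p6 promoter windows.

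Read counts were not used here, so no sampling interval is given. Steps between low loci put the depth of the other 4 libraries at 0.932 to 1.035 times that of shSox21os, with 20.9 to 23.9% of loci within 0.02 (log2) of the step. Absolute depth is unknown.

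Values were analysed as log2(FPKM + 1), which understates changes of low genes. An entry entered the fit when 2 of 19 libraries held 1 FPKM or more, and was fitted with limma 3.58.1 in R 4.3.3 (12 group means, 7 residual degrees of freedom, variance prior with a trend, two-sided, Benjamini-Hochberg). shSox21os has 1 library and is assumed to vary like the other groups. On simulated data with 200 changed entries among 14942, 58.2% of 2-fold and 95.8% of 4-fold changes were recovered and 3.9% of calls were false. The simulated noise was normal with the fitted spread, also for shSox21os, so these shares hold only under that assumption.

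The members and all 48 gene lists were chosen with earlier results of these data known. Genes were named by rule: the targets' neighbours; the 12 largest calls on each side, filled with the largest gaps beyond the range; up to 5 members of lists with at least 3 members on 1 side; and the SoxB, Nr2f and Pou3f families. Predicted, RIKEN, small RNA, pseudogene, accession and unnamed entries were left out of the ranking. Genes named outside this rule were chosen after their values were seen. Alternatives covered pseudocount, filter, scaling, model, replicate block and left-out libraries. Some genes counted in the lists are not reported here by name.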

Additional observations from a re-analysis of the deposited data

How the results depend on the processing

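The call count of 1 became 0 with a pseudocount of 0.1, 0 with a filter of 5 FPKM in 2 libraries, 0 with the 5 knockdown libraries modelled alone and 0 with the other 4 as 1 group. At an unadjusted p under 0.05 these held 423, 232, 888 and 412 entries by limma. It became 178, of which 162 were higher, without a filter on low values (any value above 0), and 5 with the 7 retinoic acid libraries modelled alone. It was 1 to 2 when each of the 4 other knockdown libraries was left out. In alternatives chosen after seeing the data, it was 7 with the 5 knockdown libraries alone and the other 4 as 1 group. Fits without control 1 or without control 2 also called XLOC_005051, but they drop its spread between the controls. The cause was not tested.

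The count outside the range, 3336, became 5140 with a floor of 1 FPKM and 54 at 1.5-fold or more beyond the range, and ran from 3750 to 5161 when each of the 4 libraries was left out. A range over fewer libraries is narrower by construction.

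The labels do not say whether the replicate numbers pair samples. Same-numbered deviations correlated at -0.05 between shNr2f1as and shPou3f3os, 0.30 between shNr2f1as and the controls and -0.02 between shPou3f3os and the controls. These correlations cannot settle whether samples were paired. The fit with the replicate block gave 1 call. Reversed values were those of Birc5 (-0.015 under the block), Rarb (-0.42 to 0.077 when each library was left out) and Nr2f6. Nr2f6, at 0.00079 in the fit as reported, was -0.039 at the same total, -0.0079 at the same median ratio, -0.078 under the block and -0.066 (without shNr2f1as 2) to 0.067 (without shNr2f1as 1) when each library was left out, with -0.0015 without shPou3f3os 2. Among values of named entries under alternatives, 3190 kept their direction and side of the threshold. Of list medians under alternatives, 783 moved by less than the spread over the 4 libraries and 33 by more.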
